A study of Mus musculus with 9 samples.

Results

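The 9 genes described here are expressed by neural stem cells, by the progenitors they give rise to and by young neurons: Hes5, Sox2, Prom1, Sox4, Sox11, Dlx1, Dlx2, Dcx and Neurod1. They were taken by name, and every non-control probe whose RefSeq accession maps to a member was used. That gave 15 probes among the 55681 non-control probes of the array, and 9 genes among the 30837 tested. Of these 30837, 17589 had a gene symbol, and every other accession was counted as a gene of its own. Shares and medians of all genes below are over this mixture. All 15 probes passed the filter on dim signal. Several probes were present for 5 genes (3 for Dcx, and 2 each for Neurod1, Prom1, Sox4 and Sox11), and the brightest probe stood for the gene.

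In the adult mouse forebrain, neural stem cells line the wall of the lateral ventricle and the inner edge of the dentate gyrus, where they keep features of astrocytes. Notch signalling holds them as stem cells through transcription factors of the Hes family, and progenitors that leave this state make neuroblasts, which become interneurons of the olfactory bulb or granule neurons of the hippocampus. Focal ischaemia is known to draw neuroblasts from the ventricle wall towards injured tissue over days to weeks. Most of these genes are also used elsewhere in the brain, for example Sox2 in astrocytes and Neurod1 in mature granule neurons.

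Brain RNA of adult male C57/BL6 mice was measured in 3 groups of 3, with a separate mouse behind each array of a group. VEGF mice had 90 min of middle cerebral artery occlusion and, 3 h after blood flow returned, 1 µl of human VEGF-A165 (recombinant, 10 µg/ml) into the right lateral ventricle. MCAO mice had the same occlusion and the same injection with phosphate-buffered saline alone. Sham mice had sham surgery, and the labels state no injection for them. All brains were taken 24 h after reperfusion, at an age of 50 to 53 days, and the labels do not say which part or side of the brain was used. The title asks what VEGF does to the expression profile after focal ischaemia. Both the occlusion and the slide separate VEGF and MCAO arrays from sham arrays: the 6 arrays of occluded mice lay on slide 2 and the 3 sham arrays on slide 1, so slide, injection and occlusion cannot be told apart in either comparison with sham.

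Levels below are log2 of the processed signal minus the 75th percentile of the same array, so 0 means as bright as that percentile, and levels of different genes are not compared. Between 73.0% and 81.8% of spots per array were well above background. VEGF array 1 and MCAO array 1 stood apart from the rest: their 75th percentile signals were 848 and 923, against 1420 to 2070 on the other 7 arrays. On the first principal component of all genes, which held 56.7% of the variance, they scored 141 and 130, the other 4 arrays of occluded mice -7.79 to 16 and the sham arrays -104 to -90.1. MCAO array 1 was also the only array scanned on another day. The differences of the 9 genes are therefore given from all 9 arrays and from the 7 arrays that remain without this pair. These 7 are arrays 2 and 3 of the VEGF group, arrays 2 and 3 of the MCAO group and the 3 sham arrays. Leaving out arrays that stand apart lowers the estimated spread, and the adjusted p-values of that fit do not allow for this choice. Sign counts of gene lists and values of single probes come from all 9. In brain RNA, fewer cells of a type and less RNA per cell cannot be told apart.

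With all 9 arrays, limma called 0 of the 9 genes at an adjusted p under 0.05 in any comparison. Of all genes, limma called 2.33% in VEGF against sham and 2.74% in MCAO against sham, and 0.00649% between VEGF and MCAO. At an unadjusted p under 0.05 stood 1 of 9 genes in VEGF against sham (24.1% of all genes), 3 of 9 in MCAO against sham (21.5%) and 0 of 9 in VEGF against MCAO (2.9%). With the 7 arrays 4 of 9 were lower in VEGF mice than in sham mice (Hes5, Prom1, Dcx and Neurod1), where 13.1% of all genes were called lower. In MCAO mice 2 of 9 were lower than in sham mice (Hes5 and Dcx), where 14.3% of all genes were called lower. No member was called higher in any of these fits. In VEGF against MCAO the 7 arrays gave 0 of 9, with 0.00973% of all genes called.

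**Figure D1:**
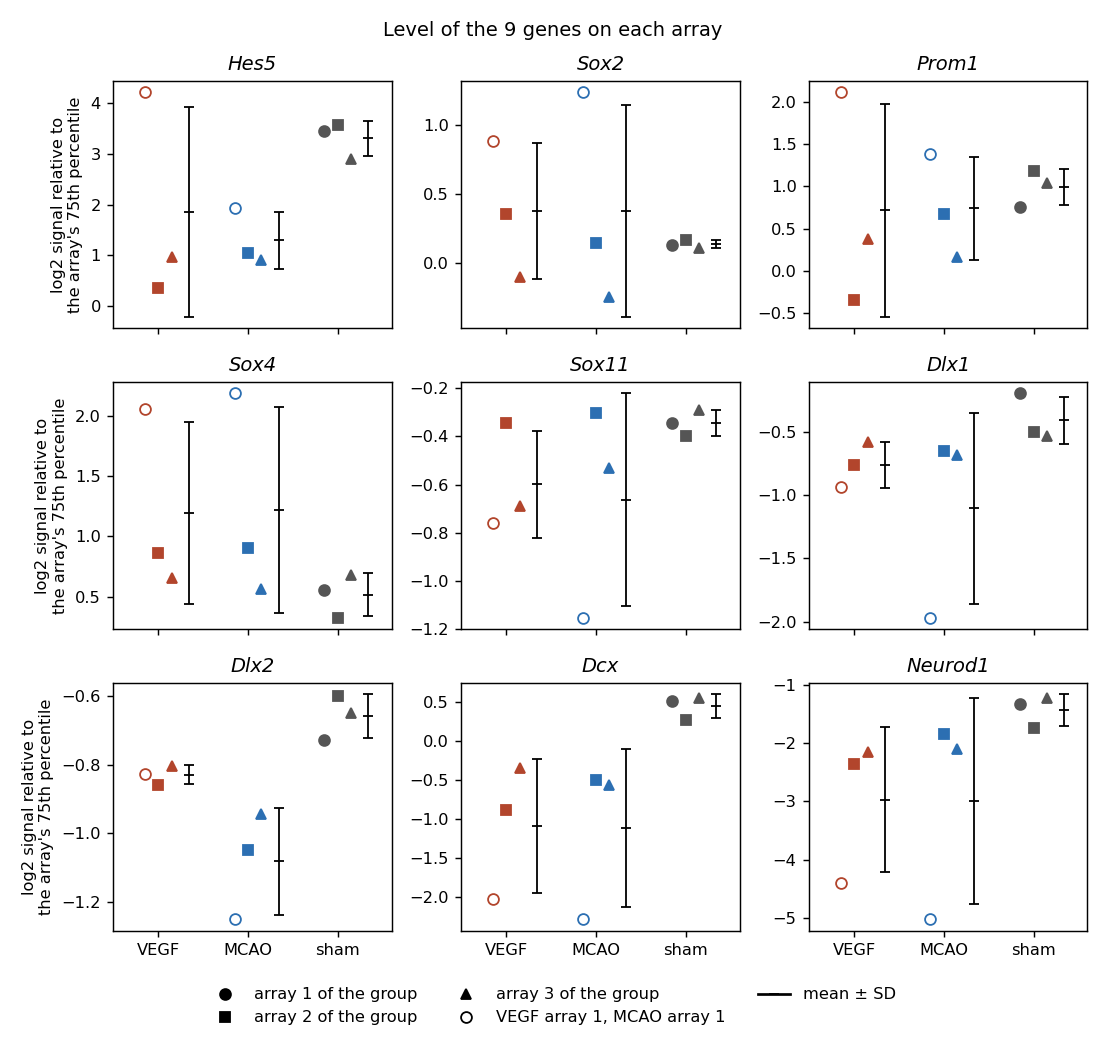
Level of each of the 9 genes on every array, as log2 signal relative to the array's 75th percentile, with each gene on its own vertical scale. Points are arrays, open symbols are VEGF array 1 and MCAO array 1, and bars are the mean ± SD of 3 arrays. The 3 sham arrays span at most 0.66 log2 units for any gene, and for all 9 genes the value farthest from the other arrays of occluded mice is an open symbol.

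Hes5, a Notch target that keeps neural progenitors from differentiating, had the lowest levels relative to sham on the arrays outside the pair. It stood at 4.22, 0.36 and 0.97 in VEGF mice, at 1.94, 1.04 and 0.90 in MCAO mice and at 3.45, 3.57 and 2.91 in sham mice. All 3 MCAO arrays lay below all sham arrays, as did VEGF arrays 2 and 3, while VEGF array 1 lay above every sham array. With that array in, the SD in VEGF mice was 2.07, against 0.57 in MCAO mice and 0.35 in sham mice. With all arrays (n = 3 per group) the difference was -1.46 ± 0.88 log2 units in VEGF against sham (± standard error here and below, limma adjusted p = 0.313). It was -2.01 ± 0.88 in MCAO against sham (limma adjusted p = 0.231). Without the pair n was 2 in the VEGF group and 2 in the MCAO group, here and below. Hes5 was then 6.25-fold lower in VEGF mice than in sham mice (-2.64 ± 0.26, limma adjusted p = 0.00309) and 5.06-fold lower in MCAO mice (-2.34 ± 0.26, limma adjusted p = 0.00335).

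The 300 bases around the start of Hes5 are shown because this gene had the largest difference of the 9 in the fit of 7 arrays and is a direct Notch target, whose promoter is read by the Notch cofactor RBPJ. The window is chr4:154960673-154960972 on the plus strand of GRCm38.p6, from RefSeq, mostly upstream of the start, and the capitals mark the letters GTGGGAA, searched on both strands.
Hes5: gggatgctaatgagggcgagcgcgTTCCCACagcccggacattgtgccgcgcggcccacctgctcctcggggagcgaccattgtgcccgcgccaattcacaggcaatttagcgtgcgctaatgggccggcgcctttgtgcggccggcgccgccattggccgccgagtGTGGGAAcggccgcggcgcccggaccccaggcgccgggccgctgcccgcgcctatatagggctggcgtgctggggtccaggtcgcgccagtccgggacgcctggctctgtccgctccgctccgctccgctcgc
The motif occurred at 2 places in this window, once on each strand, in none of the windows of the other 8 genes, and in 6.39% of 32817 RefSeq windows of the same length. Such a match describes the sequence and is not a measured binding site.

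Other Notch pathway genes stood in both directions. Of 21 measured ligands, receptors, modifiers and targets, limma called 0 with all arrays in VEGF or in MCAO against sham (7 and 9 at an unadjusted p under 0.05). The list's median was 0.24 and 0.17 with all arrays and -0.17 and -0.074 without the pair, where the medians of all genes were -0.16 and -0.07, and -0.15 and -0.13. In VEGF mice the genes of smallest p were Lfng, a sugar transferase that modifies Notch (0.59 ± 0.20, limma adjusted p = 0.146), Rbpj (0.86 ± 0.31), the receptor gene Notch4 (1.86 ± 0.70) and the ligand gene Jag1 (1.63 ± 0.62). In MCAO mice they were Dner, a Notch ligand-like gene of neurons (-1.25 ± 0.32, limma adjusted p = 0.0792), the Notch target Hey1 (-0.85 ± 0.24), the ligand gene Dll3 (-0.86 ± 0.25) and Notch4 (1.86 ± 0.70).

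In the fit of 7 arrays 2 of the 21 Notch genes were higher (8% of all genes) and 1 lower (13.1%) in VEGF mice. In MCAO mice 4 were higher (9.29% of all genes) and 3 lower (14.3%). Notch4, which endothelial cells express, was higher in both (1.06 ± 0.20, limma adjusted p = 0.0171 in VEGF mice, and 1.3 ± 0.20, limma adjusted p = 0.00819 in MCAO mice), and so was Mfng (0.87 ± 0.23 and 0.99 ± 0.23). Dner was lower in both (-0.74 ± 0.19 and -0.89 ± 0.19). In MCAO mice Dll4 (1.32 ± 0.29) and Jag1 (1.24 ± 0.34) were also higher, and Hey1 (-0.60 ± 0.15) and Dll3 (-0.60 ± 0.14) lower. Mfng and Dll4 were named after their values were seen. On VEGF array 1 and MCAO array 1 the median of the Notch list was 1.1 and 0.76 above the sham mean, against -0.25 to 0.022 on the other arrays of occluded mice. The median of 12 endothelial markers was 2.52 and 1.99 there, against 0.42 to 0.73. All 12 were detected, and 9 were positive in VEGF and 8 in MCAO against sham. With all arrays limma called 1 of them, Slco1a4, and it was lower in both comparisons. With the 7 arrays 5 were called higher and 2 lower in VEGF mice, and 5 higher and 1 lower in MCAO mice. The summed level of the 12, relative to the 75th percentile, was 60.1 to 246 in VEGF mice, 69.9 to 182 in MCAO mice and 38.0 to 42.3 in sham mice. The part of endothelial cells in the values of Notch4, Dll4 and Jag1 was not tested.

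Sox2, a transcription factor of stem cells and astrocytes, did not pass in any fit. Its level was 0.88, 0.35 and -0.097 in VEGF mice, 1.23, 0.15 and -0.25 in MCAO mice and 0.14, 0.17 and 0.11 in sham mice. The arrays of the pair were the highest of all 9, and array 3 of both occluded groups lay below every sham array, so each occluded group spanned the sham values. With all arrays the difference was 0.24 ± 0.39 in VEGF against sham and also 0.24 ± 0.39 in MCAO against sham (limma adjusted p = 0.706 and 0.735). Over the 7 arrays it was -0.0089 ± 0.19 in VEGF and -0.19 ± 0.19 in MCAO mice, so the sign depended on the pair.

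Prom1 encodes prominin-1, a membrane protein used to sort neural stem cells and also found on ependymal cells. It stood at 2.11, -0.35 and 0.38 in VEGF mice, at 1.38, 0.68 and 0.17 in MCAO mice and at 0.76, 1.18 and 1.04 in sham mice. The arrays of the pair were again the highest, and the other 4 arrays of occluded mice lay below every sham array. The Prom1 difference was -0.28 ± 0.58 in VEGF against sham and -0.25 ± 0.58 in MCAO against sham with all arrays, and -0.97 ± 0.27 (limma adjusted p = 0.0493) and -0.57 ± 0.27 (limma adjusted p = 0.169) with the 7 arrays. The median of 9 ependymal markers, all detected, was -0.42, 0.44 and -1.36 relative to the sham mean on VEGF arrays 1, 2 and 3. On MCAO arrays 1, 2 and 3 their median was 1.36, 0.33 and -0.21. Prom1 itself was highest on VEGF array 1 and lowest on VEGF array 2, and the part of ependymal cells in its values was not tested.

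Among 18 genes of stem and radial glia-like cells that are no members, the genes called with all arrays encode intermediate filaments. Vim, the filament of progenitors that endothelial cells and microglia also make, was the one called in both comparisons with sham. The median of 11 microglia and macrophage markers, all detected, was 2.23, 0.53 and 0.46 above the sham mean in VEGF mice and 1.43, 0.80 and 0.73 in MCAO mice. Their summed level was 109 to 249 in VEGF mice, 116 to 154 in MCAO mice and 87.2 to 105 in sham mice. Of the 11, 8 were positive in each comparison with sham, and with all arrays limma called 1 higher and 1 lower in each. With the 7 arrays 5 were called higher and 1 lower in VEGF mice, and 6 higher and 2 lower in MCAO mice. The part of these cells in Vim was not tested. Vim stood at 6.44, 5.14 and 5.01 in VEGF mice, 6.37, 5.48 and 4.76 in MCAO mice and 1.72, 1.91 and 1.91 in sham mice, so that both occluded groups lay above sham. It rose by 3.68 ± 0.47 in VEGF against sham (limma adjusted p = 0.00819) and by 3.69 ± 0.47 in MCAO against sham (limma adjusted p = 0.00727). Gfap, the intermediate filament of astrocytes and adult stem cells, rose by 2.02 ± 0.40 in VEGF against sham (limma adjusted p = 0.0396) and stood at 1.81 ± 0.40 in MCAO against sham (limma adjusted p = 0.0523). Nestin (Nes), a filament of progenitors and of reactive cells, was at 2.47 ± 0.80 and 3.15 ± 0.80 and passed with the 7 arrays only (1.74 ± 0.26 and 2.32 ± 0.26, limma adjusted p = 0.00987 and 0.00346). No other gene of the list was called with all arrays (4 of 18 in VEGF and 7 of 18 in MCAO against sham had an unadjusted p under 0.05), and 10 of the 18 were negative in each comparison with sham, with a median of -0.041 in VEGF and -0.25 in MCAO mice.

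In the fit without the pair, 3 of the 18 were higher (8% of all genes) and 2 lower (13.1%) in VEGF mice. In MCAO mice 4 were higher (9.29% of all genes) and 4 lower (14.3%). Apart from the 3 filament genes, those in VEGF mice were Hopx (-1.38 ± 0.17, limma adjusted p = 0.00614) and Sox21 (-0.64 ± 0.16, limma adjusted p = 0.0397). Hopx is a gene of quiescent stem cells, and Sox21 is a transcription factor gene of progenitors. In MCAO mice they were lower too (-0.76 ± 0.17 and -0.78 ± 0.16), as were Sox1 (-0.69 ± 0.20) and Fabp7, a lipid carrier of radial glia (-1.15 ± 0.32), while Tead2 was higher (0.75 ± 0.21). Hopx, Sox21 and Tead2 were named after their values were seen. Of 13 astrocyte markers, all detected, 8 were positive in VEGF and 4 in MCAO against sham, and the median per array was 0.45, -0.027 and 0.047 in VEGF mice and -0.33, -0.11 and -0.11 in MCAO mice. Their summed level was 352 to 583 in VEGF mice, 343 to 352 in MCAO mice and 322 to 358 in sham mice. In the fit of 7 arrays, Gfap was higher and the gap junction gene Gja1 lower in both comparisons with sham, and Ntsr2 was lower in VEGF mice, the 3 astrocyte genes called there. The part of astrocytes in the values of Hopx, Sox21 and Fabp7 was not tested.

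Sox4 and Sox11 are related transcription factors that switch on genes of young neurons, and Sox4 is also used outside the nervous system. Sox4 stood at 2.06, 0.86 and 0.66 in VEGF mice, 2.19, 0.91 and 0.57 in MCAO mice and 0.55, 0.32 and 0.68 in sham mice. The pair was far above the rest, and array 3 of each occluded group lay among the sham values. The difference was 0.68 ± 0.48 in VEGF against sham and 0.70 ± 0.48 in MCAO against sham with all arrays, and 0.24 ± 0.17 and 0.22 ± 0.17 with the 7 arrays, with no call in any of these.

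Sox11 went the other way on the pair. Its level was -0.76, -0.35 and -0.69 in VEGF mice, -1.16, -0.30 and -0.53 in MCAO mice and -0.34, -0.40 and -0.29 in sham mice. The groups overlapped, and the lowest values of VEGF and MCAO mice were on the pair. The difference was -0.26 ± 0.25 in VEGF against sham and -0.32 ± 0.25 in MCAO against sham, and -0.17 ± 0.15 and -0.072 ± 0.15 with the 7 arrays. Opposite signs for related factors are a description here, since neither passed.

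Of 14 other measured Sox genes limma called 0 with all arrays in either comparison with sham (4 in VEGF and 6 in MCAO mice at an unadjusted p under 0.05). Sox7, a factor of endothelial cells, came closest, at 2.15 ± 0.50 in VEGF against sham (limma adjusted p = 0.0682) and 2.07 ± 0.50 in MCAO against sham (limma adjusted p = 0.0699). With the 7 arrays 8% and 9.29% of all genes were called higher in VEGF and MCAO mice, and 13.1% and 14.3% lower. Of the 14 Sox genes, 1 was higher and 3 were lower in each. The higher one was Sox7 in both comparisons (1.54 ± 0.26 in VEGF and 1.89 ± 0.26 in MCAO mice). The lower ones were Sox12 (-1.07 ± 0.18 and -0.69 ± 0.18), which belongs to the same subgroup as Sox4 and Sox11, and Sox21 in both, with Sox6 in VEGF mice (-0.78 ± 0.22) and Sox1 in MCAO mice. Sox6 was named after its values were seen.

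Dlx1 and Dlx2 are neighbouring homeobox genes on chromosome 2, read from opposite strands, that direct progenitors towards interneurons and stay on in some adult interneurons. Dlx1 was at -0.94, -0.76 and -0.58 in VEGF mice, at -1.97, -0.65 and -0.69 in MCAO mice and at -0.20, -0.50 and -0.53 in sham mice. Every array of occluded mice lay below every sham array, by a small margin outside MCAO array 1. The difference was -0.35 ± 0.35 in VEGF against sham (limma adjusted p = 0.528) and -0.69 ± 0.35 in MCAO against sham (limma adjusted p = 0.281). It was -0.26 ± 0.15 in both comparisons with the 7 arrays, and not called.

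Dlx2 varied least of the 9 genes within the VEGF group. It stood at -0.83, -0.86 and -0.80 in VEGF mice, -1.25, -1.05 and -0.94 in MCAO mice and -0.73, -0.60 and -0.65 in sham mice. The 3 groups did not overlap, with sham highest, VEGF between and MCAO lowest, and the pair did not stand apart in the VEGF group. The difference was -0.17 ± 0.17 in VEGF against sham (limma adjusted p = 0.516) and -0.42 ± 0.17 in MCAO against sham (unadjusted p = 0.0325, limma adjusted p = 0.195). Without the pair these were -0.17 ± 0.12 and -0.34 ± 0.12 (limma adjusted p = 0.323 and 0.0798).

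Interneuron lineage genes around Dlx were described as a list of 17 measured genes, of which 12 were negative in VEGF and 14 in MCAO against sham, with medians of -0.33 and -0.75 (-0.25 and -0.46 without the pair), where the medians of all genes were -0.16 and -0.07 (-0.15 and -0.13). With all arrays limma called 0 of them, and 4 had an unadjusted p under 0.05 in each comparison, a share near the 24.1% and 21.5% of all genes. Without the pair, where 13.1% and 14.3% of all genes were called lower, 3 of the 17 were lower in both comparisons. These were Meis2, a homeobox gene of the striatum and of olfactory bulb interneurons (-1.14 ± 0.21 in VEGF mice, limma adjusted p = 0.0162, and -1.07 ± 0.21 in MCAO mice, limma adjusted p = 0.0165), the non-coding transcript Dlx6os1 (-1.14 ± 0.14 and -0.84 ± 0.14) and Etv1 (-0.82 ± 0.16 and -0.68 ± 0.16). Dlx1as, a transcript antisense to Dlx1, was at -1.25 ± 0.37 in VEGF and -1.33 ± 0.37 in MCAO mice with the 7 arrays (limma adjusted p = 0.0587 and 0.0469). Lhx6, of cortical interneurons, stood at -0.66 ± 0.23 and -0.46 ± 0.23 with all arrays and Sp9 at -0.54 ± 0.34 and -1.05 ± 0.34, none of them called there or without the pair. Of 6 olfactory bulb markers, all detected, 4 were negative in each comparison with sham, and their median was -0.82 to -0.050 on VEGF arrays and -0.83 to -0.55 on MCAO arrays. How much olfactory bulb each sample held was not tested.

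Dcx encodes doublecortin, a microtubule protein that marks migrating neuroblasts. It stood at -2.02, -0.89 and -0.35 in VEGF mice, at -2.28, -0.49 and -0.56 in MCAO mice and at 0.52, 0.27 and 0.55 in sham mice. All 6 arrays of occluded mice lay below all 3 sham arrays, with the pair lowest by more than 1 log2 unit. With all arrays the difference was -1.53 ± 0.55 in VEGF against sham (95% interval -2.79 to -0.28, limma adjusted p = 0.156) and -1.56 ± 0.55 in MCAO against sham (-2.81 to -0.31, limma adjusted p = 0.163). In the fit of 7 arrays Dcx was 2.09-fold lower in VEGF mice than in sham mice (-1.06 ± 0.19, limma adjusted p = 0.0156) and 1.97-fold lower in MCAO mice (-0.98 ± 0.19, limma adjusted p = 0.0166).

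Neurod1, a proneural factor that drives granule and other excitatory neurons to mature, followed Dcx across the arrays. Its level was -4.40, -2.36 and -2.16 in VEGF mice, -5.02, -1.85 and -2.11 in MCAO mice and -1.33, -1.74 and -1.23 in sham mice. Every array of occluded mice lay below every sham array, and the pair lay more than 2 log2 units below the others. The difference was -1.54 ± 0.87 in VEGF against sham (limma adjusted p = 0.290) and -1.56 ± 0.87 in MCAO against sham (limma adjusted p = 0.321). Over the 7 arrays Neurod1 was 1.77-fold lower in VEGF mice (-0.83 ± 0.19, limma adjusted p = 0.0308), and stood at -0.55 ± 0.19 in MCAO against sham (limma adjusted p = 0.0847). The difference between these was not shown by any test, as VEGF against MCAO was -0.28 ± 0.21 (limma adjusted p = 0.823).

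The starts of Dcx and Neurod1 are shown because these genes had the highest correlation among members over the 9 arrays (Pearson r = 0.96, as a description of arrays that share scaling and tissue). Over the 7 arrays their r was 0.93, and that of Dcx and Hes5 was higher, at 0.95. Both windows come from RefSeq on GRCm38.p6, minus strand, chrX:143933170-143933469 for the first of 2 listed starts of Dcx and chr2:79456587-79456886 for Neurod1. Capitals mark the homeodomain core TAATTA in Dcx and the E-box CANNTG, the letters that proneural factors read, in Neurod1, both searched on both strands.
Dcx: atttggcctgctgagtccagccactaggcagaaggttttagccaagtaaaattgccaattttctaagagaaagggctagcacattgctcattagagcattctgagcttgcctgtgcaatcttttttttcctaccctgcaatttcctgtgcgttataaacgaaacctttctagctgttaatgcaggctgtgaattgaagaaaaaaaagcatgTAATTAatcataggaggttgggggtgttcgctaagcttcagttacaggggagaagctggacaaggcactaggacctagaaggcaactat
Neurod1: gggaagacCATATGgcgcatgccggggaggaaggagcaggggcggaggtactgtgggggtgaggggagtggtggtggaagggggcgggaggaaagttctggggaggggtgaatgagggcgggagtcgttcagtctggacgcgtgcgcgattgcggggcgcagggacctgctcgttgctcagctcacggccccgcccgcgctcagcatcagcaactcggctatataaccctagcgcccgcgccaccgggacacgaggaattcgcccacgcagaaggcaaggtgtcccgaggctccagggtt
TAATTA occurred once in the Dcx window, in 1 of the 9 genes' first windows and in 5.3% of all 32817 windows. An E-box occurred once in the Neurod1 window, in 7 of the 9 first windows and in 72.3% of all windows. The Dcx window shown held no E-box, and that says only that these letters are not in it. Of the other motifs searched, the Hes-type N-box CACNAG was in 6 of the 9 first windows (42.5% of all) and the Sox letters ACAATG or ACAAAG in 2 of the 9 (28.6% of all).

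Among neuroblast and immature neuron genes, of 21 measured, 17 were negative in VEGF and 18 in MCAO against sham, with medians of -0.53 and -0.56 with all arrays and -0.37 and -0.45 without the pair. With all arrays limma called 0 of them, and 5 had an unadjusted p under 0.05 in each comparison, again a share near that of all genes. With the 7 arrays 5 were lower in VEGF mice (13.1% of all genes) and 8 in MCAO mice (14.3%), and 0 were higher. The tubulin gene Tubb3 was lower by both comparisons (-0.98 ± 0.12 in VEGF mice, limma adjusted p = 0.00625, and -1.22 ± 0.12 in MCAO mice, limma adjusted p = 0.00257). So were the adhesion gene Ncam1 (-0.86 ± 0.14 and -1.17 ± 0.14) and Dclk1, a kinase related to doublecortin (-0.92 ± 0.25 and -1.01 ± 0.25). Dclk2, of the same family, stood at -0.38 ± 0.14 in VEGF mice (limma adjusted p = 0.0943) and -0.54 ± 0.14 in MCAO mice (limma adjusted p = 0.0342). Dpysl3, of growth cones, had the opposite sign, at 0.62 ± 0.22 in VEGF against sham and 0.25 ± 0.22 in MCAO against sham with all arrays, and 0.46 ± 0.13 and 0.40 ± 0.13 without the pair, not called in either fit.

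Among 12 measured excitatory lineage factors and partners of Neurod1, 10 were negative in VEGF and 9 in MCAO against sham, with medians of -1.23 and -1.09 with all arrays and -0.81 and -0.25 without the pair. With all arrays limma called 0 of the 12, and 4 had an unadjusted p under 0.05 in each comparison. Without the pair, where 13.1% and 14.3% of all genes were called lower, 3 of the 12 were lower in both. Bhlhe22, of the same helix-loop-helix class, was at -1.5 ± 0.19 in VEGF mice (limma adjusted p = 0.00628) and -1.63 ± 0.19 in MCAO mice (limma adjusted p = 0.00381). Insm1, a factor of intermediate progenitors, stood at -1.12 ± 0.15 and -1.15 ± 0.15, and the proneural factor Neurog2 at -1.09 ± 0.23 and -1.36 ± 0.23. Neurod6, of mature cortical neurons, was at -2.66 ± 1.13 and -2.17 ± 1.13 with all arrays, and at -1.65 ± 0.50 and -0.995 ± 0.50 without the pair.

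General neuron markers stood below sham as Dcx and Neurod1 did. All 14, each detected, were negative in both comparisons with sham, with medians of -1.09 in VEGF and -1.26 in MCAO mice (-0.52 and -0.64 without the pair), and limma called 0 with all arrays (2 and 5 of 14 at an unadjusted p under 0.05). Their median was -2.35 on VEGF array 1 and -2.47 on MCAO array 1, against -0.77 to -0.39 on the other arrays of occluded mice. Their summed level was 196 to 650 in VEGF mice, 180 to 585 in MCAO mice and 764 to 834 in sham mice. In the fit of 7 arrays 4 of 14 were lower in VEGF mice (13.1% of all genes) and 5 in MCAO mice (14.3%). Of the markers with the smallest p over all 9 arrays, the vesicle gene Syp stood at -0.81 ± 0.19 and -0.95 ± 0.19 in that fit, called in both. The growth cone gene Gap43 stood at -0.86 ± 0.26 in VEGF mice (limma adjusted p = 0.0587) and -1.15 ± 0.26 in MCAO mice (limma adjusted p = 0.0245). The part of the neuron markers in the values of Dcx and Neurod1 was not tested. Dentate gyrus markers differed in order, with a median of -1.78, 0.034 and -1.53 in VEGF mice and 0.12, 0.19 and -1.21 in MCAO mice, over 5 measured genes.

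Cues that guide neuroblasts held both directions. With all arrays limma called 0 of 15 in either comparison with sham, and 7 of 15 had an unadjusted p under 0.05 in each. Over the 7 arrays 1 was higher (8% of all genes) and 5 lower (13.1%) in VEGF mice. In MCAO mice 3 were higher (9.29% of all genes) and 5 lower (14.3%). The chemokine receptor gene Cxcr4 was higher (1.27 ± 0.32 in both, limma adjusted p = 0.0373 and 0.0342), and its ligand gene Cxcl12 lower (-1.26 ± 0.22 and -1.31 ± 0.22). The repellent gene Slit1 was lower too (-0.90 ± 0.24 and -1.34 ± 0.24). Prok2, a secreted attractant of olfactory bulb neuroblasts that neutrophils also make, stood at 1.29 ± 0.50 in VEGF mice (limma adjusted p = 0.113) and 2.18 ± 0.50 in MCAO mice (limma adjusted p = 0.0266), while its receptor gene Prokr2 was at -0.98 ± 0.45 and -1.50 ± 0.45 and not called. The median of 9 neutrophil markers, all detected, was 6.96, 4.33 and 5.90 above the sham mean in VEGF mice and 6.91, 4.12 and 6.24 in MCAO mice. Of the 9, 7 were positive and 2 negative in each comparison with sham, and with all arrays limma called 5 higher and 0 lower in each. With the 7 arrays 5 were called higher and 1 lower in VEGF mice, and 6 higher and 0 lower in MCAO mice. The summed level of these markers was 85.9 to 191 in VEGF mice, 92.3 to 213 in MCAO mice and 72.5 to 92.1 in sham mice. A sum weighs the brightest markers most, so it differed less from sham than the median did. Their part in Prok2 and Cxcr4 was not tested. Cxcl12 was named after its values were seen.

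**Figure D2:**
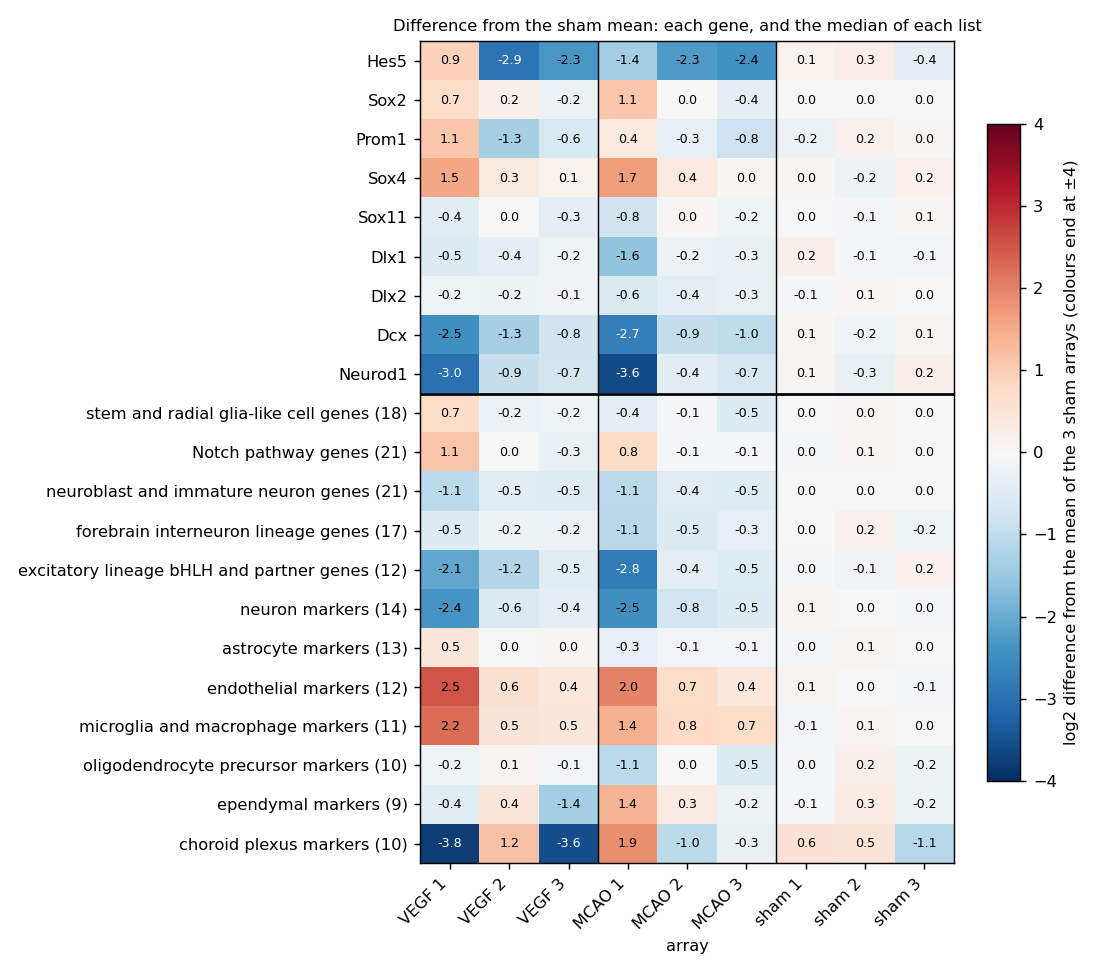
Difference of each array from the mean of the 3 sham arrays in log2 units, for the 9 genes (upper rows) and as the median of each gene list (lower rows, number of measured genes in brackets), with red above and blue below sham. VEGF array 1 and MCAO array 1 carry the strongest colours in Dcx, Neurod1, neuron markers and endothelial markers, while Hes5 is lowest on the other 4 arrays of occluded mice.

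Of 10 measured cell division genes limma called 0 with all arrays in either comparison with sham (2 in VEGF and 5 in MCAO mice at an unadjusted p under 0.05). The genes of smallest p included the replication helicase gene Mcm5 (0.54 ± 0.20 in VEGF and 0.70 ± 0.20 in MCAO mice) and Mki67 (0.22 ± 0.21 and 0.61 ± 0.21). With the 7 arrays 1 of the 10 was higher in VEGF mice (8% of all genes) and 2 in MCAO mice (9.29%), and 0 were lower. Mcm5 was higher in both (0.63 ± 0.15, limma adjusted p = 0.0312, and 0.58 ± 0.15, limma adjusted p = 0.0365), and Pcna in MCAO mice (0.45 ± 0.13, limma adjusted p = 0.0480).

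VEGF against MCAO asked what VEGF added to the occlusion, and none of the 9 genes differed by the test. The limma adjusted p was 1 for all 9 with all arrays, and 0.819 or more with the 7 arrays. With all arrays the difference was 0.028 for Dcx (95% interval -1.23 to 1.28), 0.020 for Neurod1 (-1.97 to 2.02) and 0.56 for Hes5 (-1.45 to 2.56), so these unpaired intervals include 2-fold differences in either direction. They were narrowest for Dlx2 (0.25, -0.13 to 0.63) and Sox11 (0.064, -0.50 to 0.63). The 7 arrays gave -0.089 for Dcx (-0.59 to 0.41), -0.31 for Hes5 (-0.998 to 0.39) and -0.28 for Neurod1 (-0.79 to 0.23). Dlx2 was the only member whose VEGF arrays did not overlap its MCAO arrays, and lay higher, as did 1.96% of all genes. Over all genes 2 were called, the acute-phase genes Orm1 and Orm2. With the array number as a block, fitted to these 6 arrays, limma called 0 of the 9 genes and 0 of all genes. That fit gave the same differences with 95% intervals of -0.53 to 0.59 for Dcx, -0.72 to 0.76 for Neurod1 and -1.19 to 2.30 for Hes5. A 2-fold difference lay outside its interval for Dcx and Neurod1 and inside it for Hes5. The intervals from all 9 arrays included such a difference for each of these genes. The blocked fit was chosen after seeing the data, and its block was inferred from them, so it excludes no size of difference. Of the 256 measured genes of all lists, 0 were called in this comparison with all arrays or with the 7, and 6 had an unadjusted p under 0.05 with all arrays.

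**Figure D3:**
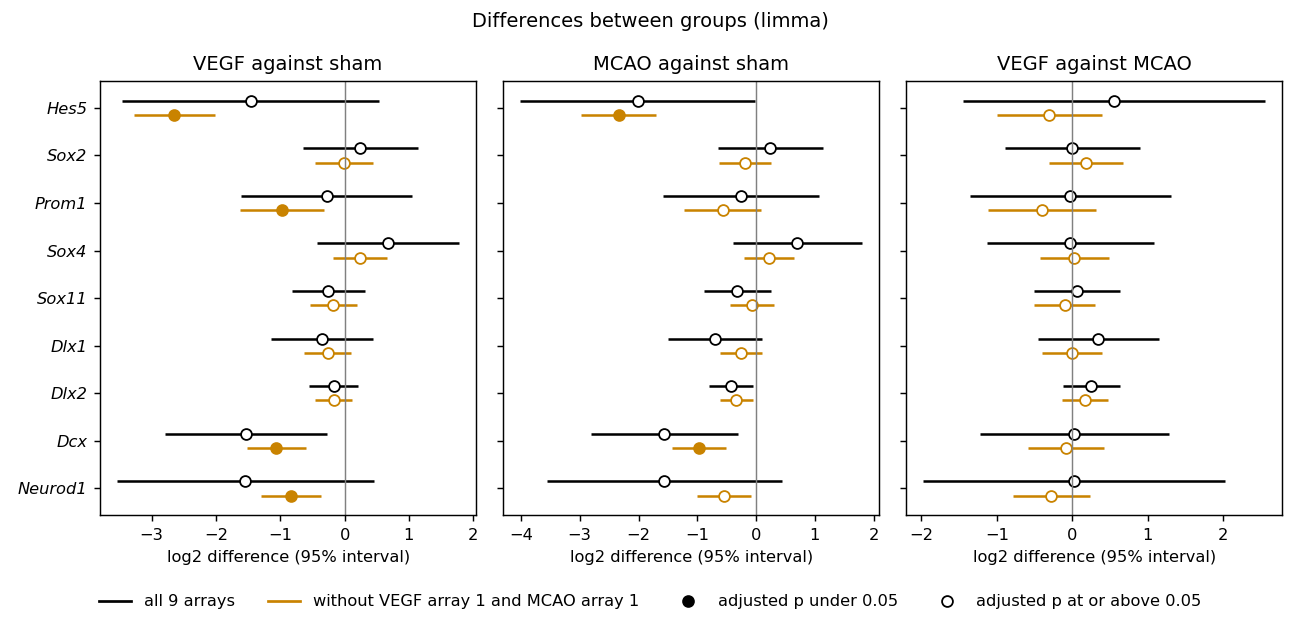
Log2 difference of each of the 9 genes in VEGF against sham, MCAO against sham and VEGF against MCAO, with 95% intervals from limma, for all 9 arrays (black) and without VEGF array 1 and MCAO array 1 (orange), each panel on its own horizontal scale. Filled points have an adjusted p under 0.05; they are Hes5, Prom1, Dcx and Neurod1 in VEGF against sham and Hes5 and Dcx in MCAO against sham, all without the pair.

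Overlap between groups was read against the same count over all genes. In VEGF against sham 4 of 9 genes lay wholly below sham (Dlx1, Dlx2, Dcx and Neurod1), as did 26.4% of all genes. In MCAO against sham 5 of 9 did (the same 4 and Hes5), as did 22% of all genes. None lay wholly above sham. The median of the 9 differences was -0.28 in VEGF and -0.42 in MCAO against sham, and it was 0.028 between VEGF and MCAO, where the medians of all genes were -0.16, -0.07 and -0.036. Both comparisons with sham share the sham arrays, so their likeness is no second measurement.

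In both comparisons with sham, the fitted differences of all probes of a gene had the sign of the brightest one. In VEGF against MCAO the third Dcx probe stood at -0.14 and the brightest at 0.028. Of the 11 probes of 5 genes, none was called. The second Dcx probe (A_52_P506493) was well above background on 3 sham arrays, on 1 VEGF array and on no MCAO array. It passed the filter on dim signal through the sham arrays alone, where its mean level was highest. Its lower level in the other groups can follow from that filter, so its sign adds no support to that of the brightest probe. The fitted difference of this probe was -0.69 ± 0.43 in VEGF and -1.28 ± 0.43 in MCAO against sham, given as a description. Its signals on the MCAO arrays, none of them well above background, entered that fit. The third Dcx probe, which carries another RefSeq transcript, stood at -0.52 ± 0.27 and -0.38 ± 0.27, a smaller difference than the brightest. The second Neurod1 probe was not above background on MCAO array 1 and stood at -1.79 ± 1.20 in VEGF and -2.15 ± 1.20 in MCAO against sham. The second probe of Prom1 stood at -0.63 ± 0.48 and -0.60 ± 0.48, of Sox11 at -0.39 ± 0.22 and -0.48 ± 0.22, and of Sox4 at 0.78 ± 0.55 and 0.86 ± 0.55.

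**Figure D4:**
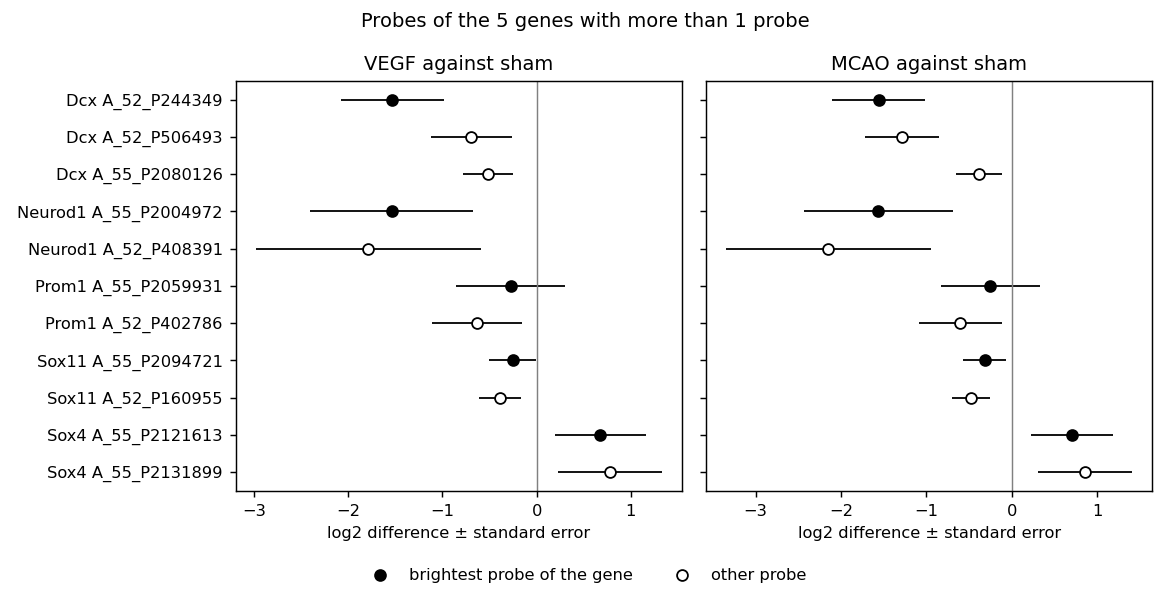
Log2 difference ± standard error of each probe of the 5 genes with several probes, in VEGF against sham and MCAO against sham, from all 9 arrays with each probe fitted on its own. Filled points are the brightest probe of the gene and open points the others, and within each gene all probes lie on the same side of 0. The Dcx probe A_52_P506493 passed the filter on dim signal through the sham arrays alone, so its side of 0 adds no support.

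Across the 9 arrays the members fell into patterns that changed when the pair was left out. Hes5 and Prom1 had a Pearson r of 0.83 over 9 arrays and 0.85 over 7. Sox2 and Sox4 had 0.92 over 9 and 0.29 over 7, and Dcx and Hes5 0.089 over 9 and 0.95 over 7. These values describe arrays that share their groups, and are given with no test. Among all genes with a symbol, those most like each member over the 9 arrays were Tmem135 for Dcx (r = 0.998), Lgi1, a secreted protein of synapses, for Neurod1 (0.993), Mmd2 for Hes5 (0.971), Kcp for Prom1 (0.970), Peak1 for Sox2 (0.996), Spry2 for Sox4 (0.992), Pth1r for Sox11 (0.980), Adcyap1r1 for Dlx1 (0.991) and Bcr for Dlx2 (0.985). Mmd2 showed the Hes5 pattern, at 3.85, 2.41 and 2.45 in VEGF mice, 2.66, 2.63 and 2.42 in MCAO mice and 3.68, 3.39 and 3.29 in sham mice. VEGF array 1 was again above every sham array, and all others of occluded mice below. Lgi1 showed that of Neurod1, at -1.25, 0.70 and 1.00 in VEGF mice, -1.80, 0.86 and 0.85 in MCAO mice and 1.86, 1.31 and 1.68 in sham mice.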

How the data were processed

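Brain RNA was hybridised to 9 one-colour Agilent arrays, 3 per group. Per the file headers, Agilent Feature Extraction 10.7.1.1 made the deposited processed intensity from background-subtracted signals divided by a spatial trend, deposited as a ratio per spot. The values of MCAO array 1 equal its undivided signals. The authors also deposited a table of unstated scale, read here as log2 values (median 6.98 per array, r 0.998 to 1.00 with log2 processed intensity). The authors' genome build is not given in the sources used here.

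Each array's 75th percentile was taken off the log2 processed intensity. A probe was kept where some group had it well above background on each of its 3 arrays (43921 of 55681 non-control probes). The brightest probe stood for a gene. RefSeq accessions were named through RefSeq GRCm38.p6 (26582 probes). Tests were limma's (version 3.58.1, R 4.3.3), from 1 fit to the 9 arrays, two-sided, adjusted by Benjamini-Hochberg over 30837 genes at 0.05. The fit had 8.50 degrees of freedom and a median standard error of 0.31. The number of arrays limits the precision.

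The deviations of VEGF and MCAO arrays of the same number correlated at 0.59, 0.22 and 0.56, and those with sham arrays at -0.11 to 0.15. Different numbers gave 0.39 for VEGF array 3 with MCAO array 2 and 0.23 for VEGF array 2 with MCAO array 3. The other pairs of different number were at -0.56 to -0.27. The labels do not say whether a number marks a shared experiment. The array number served as a block in alternatives only, and these correlations do not establish a pairing. The 9 genes and all lists were chosen with earlier results of these data known. From each list the 4 genes of smallest p in a comparison may be named, and for each member the genes of highest correlation. Alternatives covered normalization, background, detrending, filter, probes, the deposited table, blocks, weights, groups fitted and arrays left out.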

Additional observations from a re-analysis of the deposited data

How the results depend on the processing

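With 3 arrays per group, 95% half-widths had a median of 0.71 log2 units, so smaller differences could rarely be seen. Calls on the 9 genes depended on VEGF array 1 and MCAO array 1. The number of genes called in VEGF against sham, MCAO against sham and VEGF against MCAO was 717, 845 and 2 with all arrays, and 6514, 7291 and 3 without that pair, with 4, 2 and 0 of the 9 genes. Array quality weights (gene-by-gene method, since the default did not converge) were lowest for MCAO array 1 at 0.113 and VEGF array 1 at 0.146. With them 7360, 12598 and 26 of the 30837 genes were called. Of the 9 genes, 3 were then lower in VEGF against sham (Hes5, Prom1 and Dcx) and 3 in MCAO against sham (Hes5, Dlx2 and Dcx). Over all 30837 genes, 4550 and 7936 were called lower there. Normexp background correction gave 418, 556 and 0 genes and fitting only the groups compared 1206, 1797 and 1, with 1 of the 9 (Hes5, limma adjusted p = 0.0240) in MCAO against sham. In VEGF against MCAO, quantile normalization called 4 genes, signals without detrending 0 and the replicate block on the 6 arrays 0 (chosen after seeing the data). The replicate block in the fit of all 9 arrays gave 932, 1188 and 2 genes and 0 of the 9, and changed no other call. Leaving out 1 array at a time gave 150 to 3654, 189 to 2609 and 1 to 3 genes, with 0 to 1, 0 to 1 and 0 to 0 of the 9. The called gene was Dcx in VEGF against sham without MCAO array 1 (limma adjusted p = 0.0480), and Hes5 without VEGF array 1 in VEGF (0.0201) and MCAO (0.0146) against sham. Counts were lowest without 1 sham array: 150, 190 and 160 in VEGF against sham and 189, 239 and 229 in MCAO against sham without sham array 1, 2 and 3. They were 3654 in VEGF against sham and 1295 in MCAO against sham without MCAO array 1, 2609 in MCAO against sham without VEGF array 1, and 513 and 356 without MCAO array 2 and 3. The cause was not tested beyond the arrays left out.

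Of 279 values of single genes under the settings that keep all arrays or drop the pair, 247 kept their sign and side of the threshold, 13 passed in addition and 19 changed sign. No call could be lost, since the fit of all 9 arrays called 0 of the 9 genes. Sign changes with array weights were Sox2 at -0.098 in MCAO against sham, as well as, for VEGF against MCAO, Dcx -0.25, Sox4 0.047, Sox11 -0.071, Dlx1 -0.036, Neurod1 -0.42 and Hes5 -0.29. Without the pair they were Sox2 at -0.0089 in VEGF and -0.19 in MCAO against sham. For VEGF against MCAO they were Dcx -0.089, Sox4 0.025, Sox11 -0.10, Dlx1 -0.0026, Neurod1 -0.28 and Hes5 -0.31. In VEGF against MCAO, Sox2 was -0.0041 with quantile normalization and -0.0046 in the authors' table, and Neurod1 -0.061 with normexp and -0.0087 without detrending. Over all genes the median in VEGF against sham was -0.16, and -0.016 with normexp.

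With 1 array left out, Hes5 in VEGF against sham ranged from -2.64 without VEGF array 1 to -0.71 without VEGF array 2, and in MCAO against sham from -2.34 to -1.82. The range was -0.0089 to 0.48 for Sox2 and -0.97 to 0.25 for Prom1 in VEGF against sham, and -0.19 to 0.55 for Sox2 and -0.57 to 0.037 for Prom1 in MCAO against sham. In VEGF against MCAO it was -0.56 to 0.50 for Dcx, -0.31 to 0.43 for Sox2, -0.46 to 0.46 for Sox4, -0.18 to 0.24 for Sox11, -0.092 to 0.57 for Dlx1, -0.99 to 0.73 for Neurod1, -0.63 to 1.3 for Hes5 and -0.72 to 0.50 for Prom1.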

Other observations

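The choroid plexus makes cerebrospinal fluid inside the ventricles, and the median of its genes differed among the VEGF arrays more than any member did. Among the MCAO arrays the member Neurod1 spanned more than that median, at 3.17 log2 units. The median of 10 choroid plexus markers, relative to the sham mean, was -3.77, 1.19 and -3.56 in VEGF mice, 1.86, -1.04 and -0.27 in MCAO mice and 0.58, 0.51 and -1.15 in sham mice. Their summed level was 18.7 to 194 in VEGF mice, 57.6 to 343 in MCAO mice and 53.0 to 139 in sham mice, and all 10 were detected. Of the 10, limma called 0 in any comparison, and 1 had an unadjusted p under 0.05 in each. The wall of the ventricle that holds stem cells lies beside this tissue, and how much of either a sample held was not tested.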
